A study of Mus musculus with 12 samples.

Results

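Transforming growth factor beta (TGF-beta) and the genes of the myofibroblast state were followed as a group of 9 mouse genes in 3T3-L1 cells. They were the 3 ligands Tgfb1, Tgfb2 and Tgfb3, the ligand activator Thbs1, the matrix genes Fn1 and Postn, and the contractile and actin-binding genes Acta2, Tagln and Cnn1. Members were chosen by gene symbol, and each had 1 probe set, so the group was 9 of the 22206 probe sets measured. In RefSeq's annotation of GRCm38, the build the files name, the ligands lie at chr7:25687002-25705077 (Tgfb1), chr1:186622787-186709697 (Tgfb2) and chr12:86056743-86079041 (Tgfb3). Thbs1 lies at chr2:118111876-118127133, Fn1 at chr1:71585473-71653280 and Postn at chr3:54359267-54391041. The contractile genes lie at chr19:34240336-34255585 (Acta2), chr9:45929628-45936058 (Tagln) and chr9:22099221-22109221 (Cnn1).

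3T3-L1 is a mouse fibroblast-like preadipocyte line that turns into fat-storing cells under a mix of a phosphodiesterase inhibitor (IBMX), dexamethasone and insulin. Total RNA of 12 samples was measured on Clariom S arrays, which report a signal per probe set, with 2 arrays in each of 6 groups. The 5 treated groups had 5 µM of a compound for 14 days: squalene (SQ), the linear triterpene from which sterols are made, or 1 of 4 ethylene glycol derivatives of it, named from mono-SQ and di-SQ to tri-SQ and tetra-SQ. The control is labelled as cells with neither treatment nor induction, whereas the treatment protocol gives the hormone mix with or without a compound, so which medium the control cells had is uncertain. All groups shared the cell line. The labels call the samples of a group duplicates and do not say whether they came from separate cultures, so p-values measure the spread between these arrays, which may be technical.

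TGF-beta ligands are secreted in a latent complex, held in the matrix, and freed by integrins, proteases or thrombospondin 1. The freed ligand binds the type II and type I receptors, which phosphorylate Smad2 and Smad3, and these enter the nucleus with Smad4. In fibroblasts the pathway drives matrix and contractile genes and yields the myofibroblast, and in preadipocytes TGF-beta is a known inhibitor of adipogenesis. Acta2, Tagln and Cnn1 also respond to serum response factor (SRF) and its actin-regulated partners, the myocardin-related factors.

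The arrays did not stand in 6 tight pairs. In every compound group the array numbered 2 in the labels (here a second array) stood apart from the array numbered 1 (a first array), whereas the 2 control arrays were close to each other. In a limma fit with compound as a block, 4697 of 22206 probe sets differed between second and first compound arrays at an adjusted p under 0.05, which is 21.2%. The mature adipocyte marker list, 14 genes such as Adipoq and Plin1, had a mean log2 signal of 15.13 to 15.16 on the control arrays, 15.12 to 15.53 on the first compound arrays and 11.62 to 12.12 on the second. Upper quartiles of log2 signal were 8.95 to 9.16 over the 12 arrays. Each comparison with the control is therefore given with all compound arrays, with the first alone and with the second alone. The split by array number was chosen with this shift known, so its tests describe these arrays and are not independent evidence of it. In whole-culture RNA, fewer cells of a type and less RNA per cell cannot be told apart.

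The question of the study's design was what each compound did to the cells relative to the control. None of the 9 genes passed in any of the 5 comparisons, and neither did any other probe set. In the limma fit of 6 groups, 0 of 45 member tests passed at an adjusted p under 0.05, beside 0% of all probe sets in each comparison. At an unadjusted p under 0.05, again 0 of the 45 member tests passed, beside 1117 to 1886 probe sets. These were 5.03% of all with SQ, 5.9% with mono-SQ, 5.57% with di-SQ, 6.68% with tri-SQ and 8.49% with tetra-SQ. The mean of the 5 compounds differed from the control by 1.21 ± 1.01 for Postn (log2 difference ± SE), by 0.91 ± 1.14 for Thbs1 and by 0.61 ± 0.52 for Acta2, with adjusted p of 0.73 for Postn and 0.733 for Acta2. The ligands differed by -0.81 ± 0.55 for Tgfb1, -1.12 ± 0.70 for Tgfb2 and 0.43 ± 0.81 for Tgfb3. None of these 6 differences passed, and within the compound groups the 2 arrays lay far apart. In the authors' deposited table, which holds their own fold changes, Postn was 2.36-fold higher with SQ and 2.7-fold higher with tetra-SQ, with false discovery rates of 0.9197 and 0.7728.

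**Figure D1:**
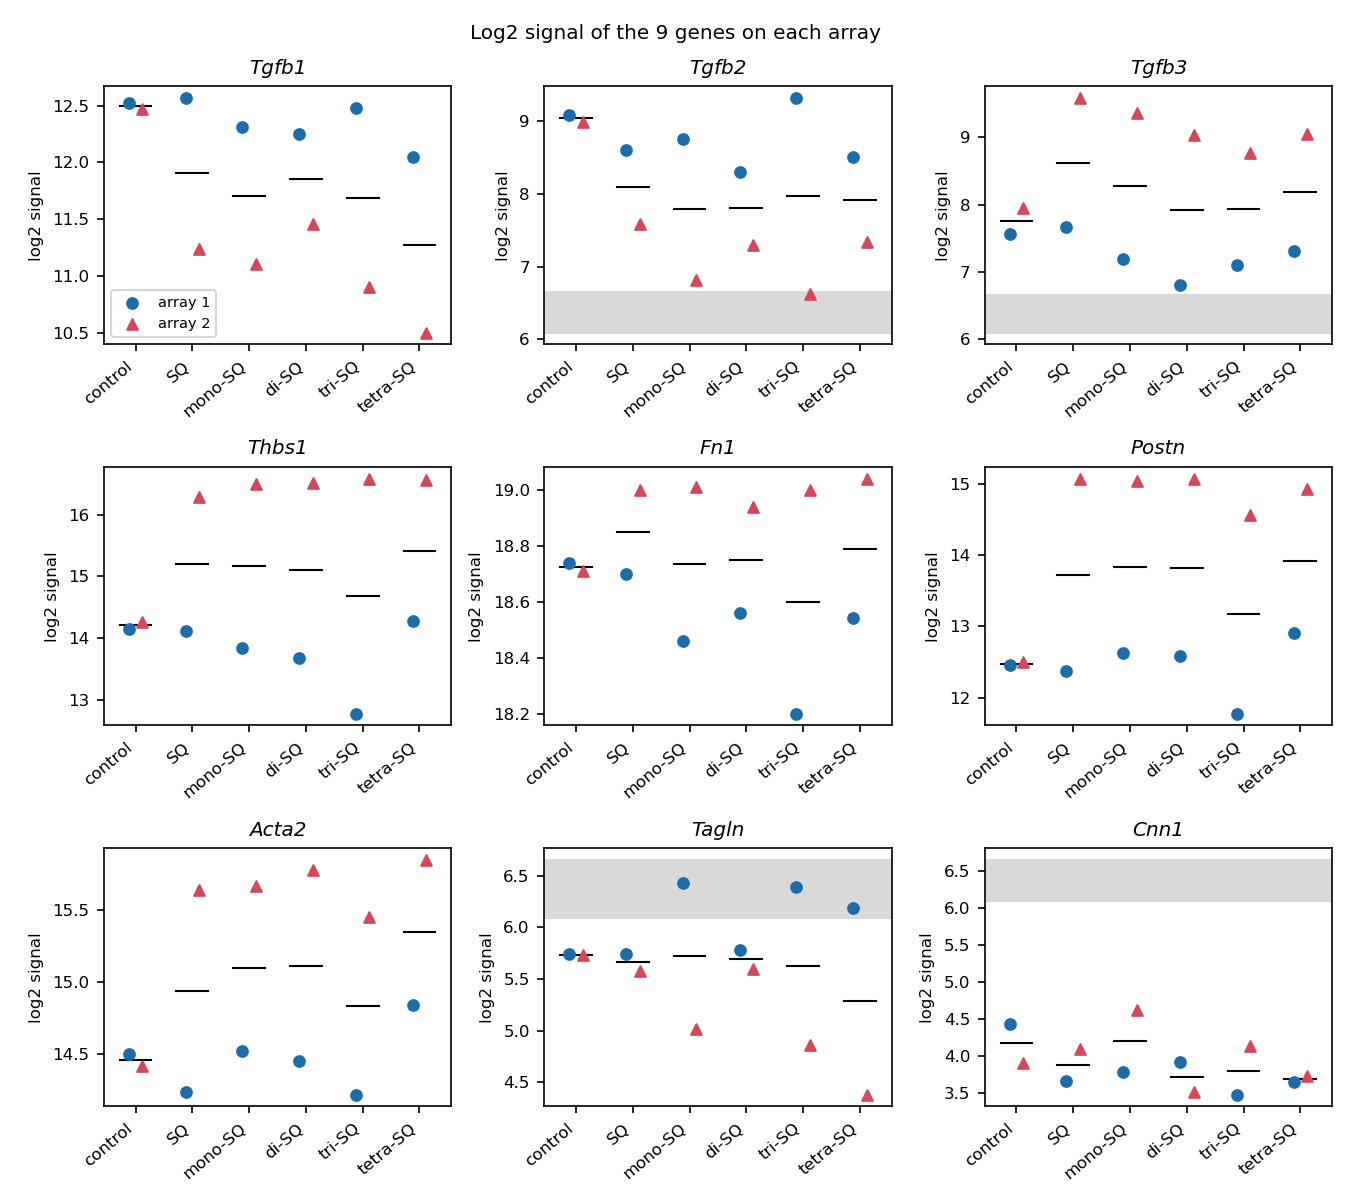
Log2 signal (vertical axes) of the 9 genes on each of the 12 arrays, by group (horizontal axes). Blue circles are arrays numbered 1, red triangles arrays numbered 2, short lines group means, and the grey band the range of the 12 arrays' negative-control medians, drawn where a gene lay near it. For Postn the second compound arrays sit between 14.56 and 15.07 and every other array between 11.78 and 12.91.

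Among the ligands, Tgfb1 and Tgfb2 were lower and Tgfb3 higher on the second compound arrays. Tgfb1 encodes the ligand best known for fibrosis, made by many cell types in a latent form. Its log2 signal was 12.52 and 12.47 on the control arrays, 12.57 on the first array of SQ and 12.31, 12.25, 12.48 and 12.05 on those of the glycol derivatives from mono to tetra, and 11.24, 11.1, 11.46, 10.9 and 10.5 on the second arrays in this order. All 5 second arrays lay below the other 7. Tgfb1 fell by 1.29 ± 0.16 from first to second compound arrays (2.45-fold lower, 5 pairs, limma adjusted p = 0.000189).

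Tgfb2 encodes a second ligand, with known roles in heart and palate development. It stood at 9.08 and 8.99 in the control, at 8.6, 8.75, 8.3, 9.32 and 8.5 on the first compound arrays in the same order, and at 7.58, 6.82, 7.3, 6.63 and 7.34 on the second. The second arrays again lay below all others, and the first tri-SQ array was the highest of the 12. The change was -1.56 ± 0.24 (2.95-fold lower, limma adjusted p = 0.000949). It was widest in tri-SQ, where the second array was 2.69 lower on the log2 scale, and 1.0 lower in di-SQ.

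Tgfb3, the ligand known for palate fusion and wound repair, moved the other way. Its signal was 7.56 and 7.95 in the control, 7.66, 7.19, 6.8, 7.1 and 7.31 on the first compound arrays, and 9.59, 9.37, 9.03, 8.76 and 9.05 on the second. The second arrays did not overlap the other 7, and the first overlapped the control through SQ. Tgfb3 rose by 1.95 ± 0.15 (3.86-fold, limma adjusted p = 7.63e-06). Tgfb2 and Tgfb3 were dim genes here: on all 12 arrays both were above the median of the array's 5222 negative-control probe sets but below their 95th percentile, which ran from 10.02 to 10.83.

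Thbs1, which encodes thrombospondin 1, a matricellular protein known to activate latent TGF-beta, was higher on every second compound array. It stood at 14.15 and 14.26 in the control, at 14.12, 13.84, 13.68, 12.78 and 14.27 on the first compound arrays, and at 16.28, 16.5, 16.51, 16.58 and 16.56 on the second. The first tri-SQ array was the lowest of the 12. Thbs1 rose by 2.75 ± 0.22 (6.72-fold, limma adjusted p = 1.13e-05), the widest difference of the 9 genes in this fit.

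Of the matrix genes, Postn encodes periostin, a matricellular protein of connective tissue and healing wounds. Its signal was 12.46 and 12.5 in the control, 12.38, 12.63, 12.59, 11.78 and 12.91 on the first compound arrays, and 15.07, 15.04, 15.06, 14.56 and 14.92 on the second. The second arrays lay above all others, while the first straddled the control. Postn rose by 2.47 ± 0.16 (5.55-fold, limma adjusted p = 1.98e-06). Fn1 encodes fibronectin, which cells assemble into fibrils and through which latent TGF-beta complexes are held. It lay at 18.74 and 18.71 in the control, 18.7, 18.46, 18.56, 18.2 and 18.54 on the first compound arrays, and 19, 19.01, 18.94, 19 and 19.04 on the second. The groups did not overlap, yet the whole span was 0.84. Fn1 rose by 0.51 ± 0.14 (1.42-fold, limma adjusted p = 0.0268). That call was lost when mono-SQ, di-SQ, tri-SQ or tetra-SQ was left out, with adjusted p of 0.0635 to 0.0875.

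Of the contractile genes, Acta2 alone was bright, and Tagln and Cnn1 lay mostly or wholly below the negative-control medians. Acta2 encodes smooth muscle alpha actin, the usual marker of the myofibroblast. Its signal was 14.5 and 14.42 in the control, 14.24, 14.52, 14.45, 14.22 and 14.84 on the first compound arrays, and 15.64, 15.67, 15.78, 15.45 and 15.85 on the second. The second arrays lay above the other 7, and the first tetra-SQ array was the highest of those 7. Acta2 rose by 1.22 ± 0.14 (2.34-fold, limma adjusted p = 0.000108).

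Tagln encodes transgelin (SM22), an actin-binding protein of smooth muscle and myofibroblasts. It stood at 5.74 and 5.73 in the control, at 5.74, 6.43, 5.78, 6.39 and 6.19 on the first compound arrays, and at 5.58, 5.02, 5.6, 4.86 and 4.38 on the second. On 10 of 12 arrays this was below the median of the negative-control probe sets, so how much of the signal came from the transcript is uncertain. By level in the control, Tagln lay at percentile 51.7. Tagln fell by 1.02 ± 0.26 (2.03-fold lower, limma adjusted p = 0.0158). The difference was -0.16 in SQ, -0.18 in di-SQ, -1.41 in mono-SQ, -1.53 in tri-SQ and -1.81 in tetra-SQ. Without mono-SQ, tri-SQ or tetra-SQ the call was lost, with adjusted p of 0.0525 to 0.0758. Negative-control medians themselves were higher on the second compound arrays (6.49 to 6.66) than on the first (6.10 to 6.28), and their part in the fall of Tagln was not tested.

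Cnn1 encodes calponin, a brake on actomyosin in smooth muscle, and was below the negative-control median on all 12 arrays. Its signal ran from 3.48 to 4.63, the control arrays at 4.44 and 3.91 lay inside that range, and first and second compound arrays overlapped. The difference was 0.32 ± 0.19 (limma adjusted p = 0.301) and did not pass.

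In all, 8 of 9 members passed between second and first compound arrays, 5 higher and 3 lower, beside 11.2% of all probe sets called higher and 9.96% lower. The arrays did not overlap for these 8, beside 18.8% of all probe sets. The members' median difference was 0.51, beside -0.02 over all probe sets, whose 5th to 95th percentiles ran from -0.92 to 0.90. Every compound gave the same direction as the fit for each of the 8.

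**Figure D2:**
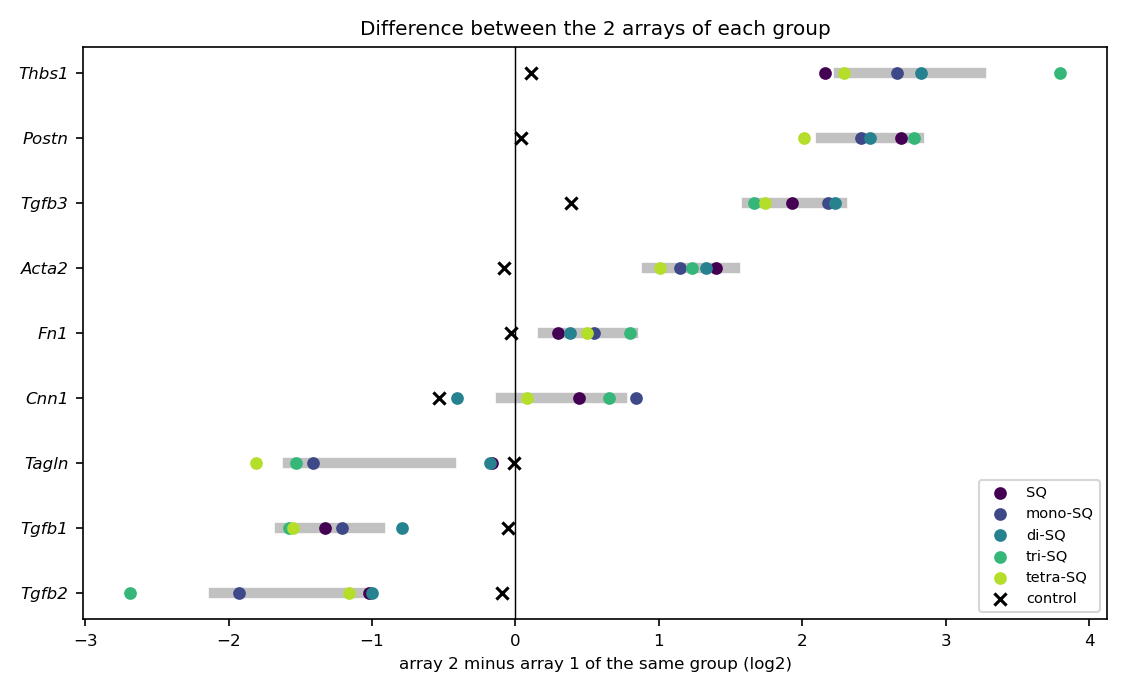
Log2 difference of array 2 minus array 1 within each group (horizontal axis) for the 9 genes (vertical axis). Circles are the 5 compounds, crosses the control, and grey bars the 95% interval of the mean over compounds from limma. The crosses lie between -0.53 and 0.39, and for Thbs1 the compounds lie between 2.16 and 3.8.

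The same difference between numbers was small in the control, where it was 0.04 for Postn, 0.11 for Thbs1, -0.08 for Acta2 and 0.39 for Tgfb3. Testing the difference in the compounds against that in the control gave 2 of 9 members, beside 2.18% of all probe sets. Postn differed by 2.43 ± 0.38 more in the compounds than in the control (limma adjusted p = 0.00909), and Thbs1 by 2.64 ± 0.55 more (adjusted p = 0.0374). The Thbs1 call was lost without mono-SQ, di-SQ or tetra-SQ, with adjusted p of 0.0641 to 0.0856, and the Postn call was kept in each of the 5 fits that left a compound out. Tgfb3 at 1.56 ± 0.36 (adjusted p = 0.0606) and Acta2 at 1.30 ± 0.34 (adjusted p = 0.0915) missed the threshold. Both passed when dim probe sets were left out (adjusted p of 0.0176 and 0.0229) and with limma's trended, robust variance (0.0394 and 0.0116). For Tgfb1, Tgfb2, Fn1, Tagln and Cnn1 the adjusted p lay between 0.181 and 0.732. The control had 1 array of each number, so this test takes the spread of the compounds' differences as that of the control.

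Against the control, the first compound arrays showed no member that passed. All 9 adjusted p missed the threshold, and 1 of 22206 probe sets passed, or 0.0045%. That probe set was Lipo4, at -1.27 ± 0.18 (limma adjusted p = 0.0449), named here after its value was seen and below the negative-control medians. At an unadjusted p under 0.05, 1 of 9 members (Tgfb3, -0.54, limma adjusted p = 0.389) differed, beside 2717 probe sets, or 12.2% of all. Acta2 differed by -0.01 with a 95% interval of -0.41 to 0.39, and Postn by -0.02. Fn1 was the 1 member whose first compound arrays did not overlap the control, lying lower, beside 10.7% of all probe sets.

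On the second compound arrays, 6 of 9 members differed from the control, beside 19% of all probe sets. Postn was higher by 2.45 ± 0.25, Thbs1 by 2.28 ± 0.29, Tgfb3 by 1.41 ± 0.24 and Acta2 by 1.22 ± 0.19 (limma adjusted p from 2.53e-06 to 0.000615). Tgfb2 differed by -1.90 ± 0.27 (adjusted p = 0.000102) and Tgfb1 by -1.46 ± 0.23 (adjusted p = 0.000226). Fn1 at 0.27 ± 0.16, Tagln at -0.65 ± 0.29 and Cnn1 at -0.16 ± 0.25 did not pass (adjusted p of 0.281, 0.146 and 0.741). The second compound arrays did not overlap the control for 5 members lying higher, Fn1 among them, and 3 lying lower, Tagln among them, beside 18.6% and 19.5% of all probe sets. These sets share the 2 control arrays with the comparison of the first compound arrays, and the 5 compounds stand in as repeats of one another.

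**Figure D3:**
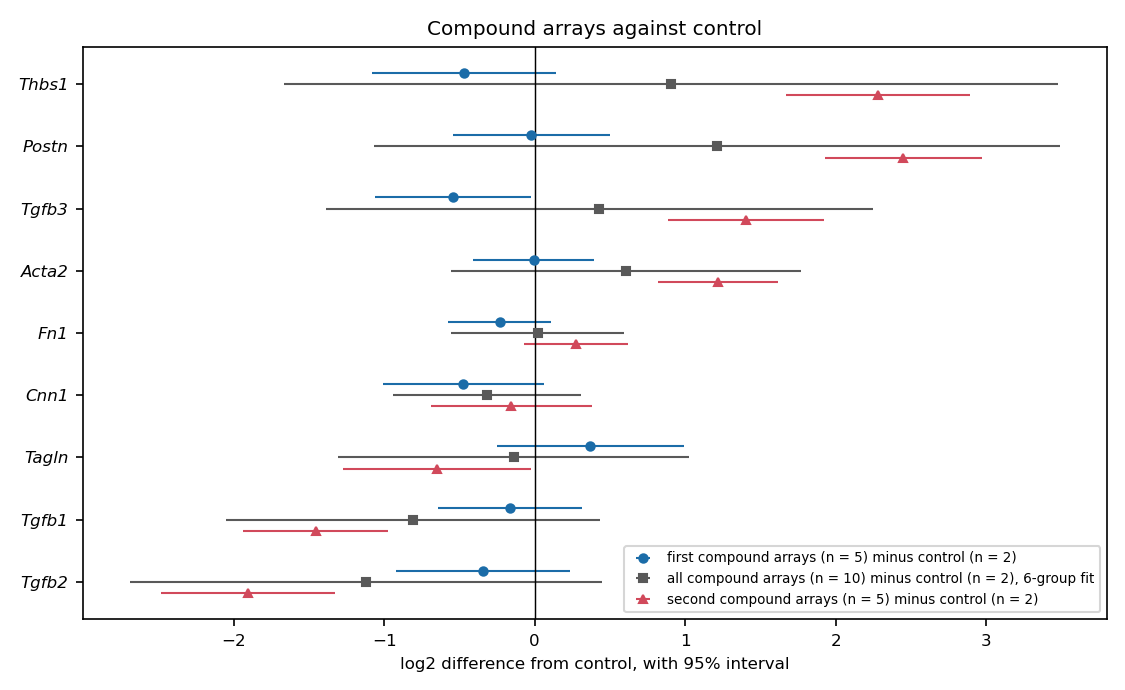
Log2 difference from the 2 control arrays (horizontal axis) with 95% intervals for the 9 genes (vertical axis), for the 5 first compound arrays (blue circles), the mean of all compounds in the fit of 6 groups (grey squares) and the 5 second compound arrays (red triangles). For Postn the values are -0.02, 1.21 and 2.45.

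Within an array number, each compound can be set beside the control array of that number. For Postn the first arrays differed from the first control array by -0.08 with SQ, 0.17 with mono-SQ, 0.13 with di-SQ, -0.68 with tri-SQ and 0.45 with tetra-SQ. The second differed by 2.57, 2.54, 2.56, 2.06 and 2.42. For Acta2 the first gave -0.26, 0.02, -0.05, -0.28 and 0.34, and the second 1.22, 1.25, 1.36, 1.03 and 1.43. For both genes tri-SQ was lowest and tetra-SQ was highest among the first arrays. These are single arrays against single arrays and carry no test.

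The 5 compounds were used at 1 dose and 1 time, so all 10 pairs could be compared directly. If the prefixes count glycol units, as the names read, the pairs differ in the length of the glycol part. In the 6-group limma fit, 0 of 90 member tests passed, adjusted or unadjusted, beside 0% of probe sets adjusted and 411 to 1169 probe sets unadjusted. The unadjusted share was 2.34%, 2.34%, 4.98% and 3.69% for the derivatives from mono to tetra against SQ. It was 1.85% for di-SQ, 3.69% for tri-SQ and 2.33% for tetra-SQ against mono-SQ, 4.5% for tri-SQ and 2% for tetra-SQ against di-SQ, and 5.26% for tetra-SQ against tri-SQ. Postn had group means of 12.48 ± 0.03 in control, 13.17 ± 1.97 with tri-SQ, 13.725 ± 1.90 with SQ, 13.825 ± 1.75 with di-SQ, 13.835 ± 1.70 with mono-SQ and 13.915 ± 1.42 with tetra-SQ (SD, n = 2). No neighbours in that order differed beyond their spread. Its widest pair was tetra-SQ over tri-SQ at 0.75, with a 95% interval of -2.20 to 3.69. The widest pair for Tgfb1 was tetra-SQ against SQ at -0.63 (-2.23 to 0.97), and for Acta2 tetra-SQ over tri-SQ at 0.51 (-0.99 to 2.01). Such intervals do not show that the compounds act alike, since differences of several fold remain inside them. With array number as a block, 0 of the 90 tests passed and the interval for Postn, tetra-SQ over tri-SQ, was -0.43 to 1.92.

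The promoters of 5 of the 9 genes were matched in RefSeq (GRCm38.p6). Those of Acta2 and Cnn1, which share SRF control, are shown with that of Postn, which was added after its values were seen. Acta2 and Postn moved together. Cnn1 did not pass, but it lay below the negative-control median on all 12 arrays and so gives no contrast with Acta2. The Acta2 window is chr19:34255374-34255623 on the minus strand, Cnn1 is chr9:22099003-22099252 on the plus strand, and Postn, on the plus strand, has windows before 2 starts, chr3:54359017-54359266 and chr3:54360857-54361106. Each gives the 250 bases before a start, 5′ to 3′ on the gene's strand, with motif matches in capitals. The windows of Acta2, Cnn1 and the second start of Postn lie partly or wholly inside the annotated gene, since another annotated start is farther upstream.
Acta2: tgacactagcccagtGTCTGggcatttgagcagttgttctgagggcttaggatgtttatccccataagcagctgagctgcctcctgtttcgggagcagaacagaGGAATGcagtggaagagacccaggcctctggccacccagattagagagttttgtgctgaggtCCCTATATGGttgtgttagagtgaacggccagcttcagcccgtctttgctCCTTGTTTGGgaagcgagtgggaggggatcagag
Cnn1: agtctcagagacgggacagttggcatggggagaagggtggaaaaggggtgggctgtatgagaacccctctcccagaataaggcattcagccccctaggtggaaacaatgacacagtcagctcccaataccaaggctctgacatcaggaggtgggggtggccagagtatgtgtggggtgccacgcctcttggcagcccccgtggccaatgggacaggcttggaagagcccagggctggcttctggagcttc
Postn, first start: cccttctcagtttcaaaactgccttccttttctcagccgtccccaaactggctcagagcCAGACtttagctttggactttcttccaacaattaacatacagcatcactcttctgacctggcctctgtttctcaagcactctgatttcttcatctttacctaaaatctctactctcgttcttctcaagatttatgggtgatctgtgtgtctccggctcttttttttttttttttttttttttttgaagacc
Postn, second start: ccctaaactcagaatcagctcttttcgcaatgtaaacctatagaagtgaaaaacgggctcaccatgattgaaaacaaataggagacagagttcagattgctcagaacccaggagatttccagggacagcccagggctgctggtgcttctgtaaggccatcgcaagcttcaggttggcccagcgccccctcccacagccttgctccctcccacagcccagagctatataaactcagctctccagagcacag
The letters searched, on both strands, were the CArG box bound by SRF, CAGAC for Smad proteins, TGANTCA for AP-1 and GGAATG for TEAD factors. No CArG box with all its letters lay in these windows, and 1.47% of 32851 promoters of the same length held one. Allowing 1 letter off, a search added after the strict result was seen, Acta2 had 2 matches, starting 84 and 34 bases before the start, and 18.6% of promoters held at least 1. Acta2 also had GGAATG, found in 12.6% of promoters, 146 bases before the start, and CAGAC on the opposite strand (printed GTCTG) 235 bases before it. Postn had CAGAC, found in 42.2% of promoters, 191 bases before its first start. TGANTCA, found in 6.75% of promoters, was in none of the 4 windows, and Cnn1 had no match. Of the matched promoters not printed, that of Tgfb1 had no match. That of Tgfb2, which was lower on the second compound arrays, had CAGAC 221 and 204 bases before its start. The Tgfb2 window, chr1:186705990-186706239 on the minus strand, also lies wholly inside the annotated gene.

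The rest of the pathway was read from gene lists between second and first compound arrays, with the same limma fit. Some genes sit on more than 1 list. Each list's count stands beside the shares of all probe sets, 11.2% higher and 9.96% lower. Of 15 genes of latency and activation, 8 were higher and 1 lower, with a median of 0.56. Ltbp2, a latent TGF-beta binding protein of microfibrils, rose by 2.97 ± 0.18 (adjusted p = 1.33e-06), Fbn1 (fibrillin 1, the microfibril core) by 1.51, Bmp1 (a protease that trims matrix proteins) by 1.48 and Itgav (the integrin alpha v chain that frees latent ligand) by 1.32. Ltbp3, named after its value was seen, was the 1 lower gene at -1.10. Of 8 receptors, 3 were higher and 0 lower: Tgfbr3 (betaglycan, a co-receptor) by 1.12 ± 0.15 (adjusted p = 0.000359), Acvr1 by 0.59 and Bmpr2 by 0.52. The signalling pair itself, also named after the values were seen, did not pass, with -0.55 for Tgfbr1 (adjusted p = 0.0722) and 0.29 for Tgfbr2 (adjusted p = 0.251). Set against the control instead, the second compound arrays had 5 of the 8 receptors called by limma, beside 19% of all probe sets. Tgfbr3 was higher by 0.80 and Bmpr2 by 0.51, and lower were Acvrl1 at -1.24, Tgfbr1 at -0.84 and Bmpr1a at -0.64. These receptors were named after their values were seen.

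Of 13 Smads and brakes of the pathway, 5 were higher and 3 lower, beside 11.2% and 9.96% of all probe sets, with a median of 0.39. Dcn, the proteoglycan decorin that binds TGF-beta, rose by 1.99 ± 0.15 (adjusted p = 7.26e-06), Smad3 by 1.54 and Skil, a Smad repressor, by 0.97, and Smad6, an inhibitory Smad, fell by 1.09. Smad6 had means of 6.83 on the first and 5.75 on the second compound arrays, the last below the negative-control medians of those arrays. Of 20 genes known as TGF-beta targets, 10 were higher and 2 lower, with a median of 0.55. Junb, an AP-1 subunit, rose by 4.04 ± 0.18 (adjusted p = 2.02e-07), Ltbp2 by 2.97, Lox (collagen cross-linking enzyme) by 1.67 and Snai2 (a transcriptional repressor) by 1.44, while the 2 lower, named after their values were seen, were Bhlhe40 at -1.20 and Cdkn1a at -0.99. Several often-used reporters of the pathway, named here after their values were seen, did not pass. Smad7 differed by 0.39 (adjusted p = 0.087), Tgfbi by 0.24 (adjusted p = 0.294) and Ccn2 by 0.10 (adjusted p = 0.766), the last at levels of 5.05 to 5.20, below the negative-control medians.

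Of 19 contractile and cytoskeletal genes beyond the members, 14 were higher and 1 lower, beside 11.2% and 9.96% of all probe sets, with a median of 0.81. Mylk, the kinase that activates smooth and nonmuscle myosin, rose by 2.35 ± 0.18 (adjusted p = 7.28e-06), Cnn2 (the calponin of nonmuscle cells) by 2.00 and Tpm1 (tropomyosin) by 1.86, and Des (desmin, a muscle intermediate filament) fell by 2.02. Of 12 regulators of the SRF pathway, 5 were higher and 0 lower, with a median of 0.29. Rock2, a kinase acting below RhoA, rose by 1.06 ± 0.14 (adjusted p = 0.00034), Srf by 0.85, Mrtfa by 0.73 and Tead1 by 0.64. Mrtfa had means of 5.73 on the first and 6.46 on the second compound arrays, each below the negative-control medians of those arrays. These medians were themselves higher on the second arrays, and their part in the rise of Mrtfa was not tested. Myocd, the smooth muscle coactivator, named after its value was seen, differed by -0.38 (adjusted p = 0.302) at levels of 2.87 to 3.34. Of 13 receptors and relatives of fibronectin and thrombospondin, 6 were higher and 2 lower, with a median of 0.56. Cd36, a thrombospondin receptor that also takes up fatty acids and is abundant in adipocytes, fell by 2.63 ± 0.15 (adjusted p = 1.08e-06), and Thbs2, Itgav and Itgb3 (the beta 3 integrin chain) rose by 2.16, 1.32 and 1.26. In the first compound arrays against the control, limma called 0 genes of these 7 lists. In the second, it called 8 of 15 latency and activation genes, 5 of 8 receptors and 7 of 13 Smads and brakes. It also called 9 of 20 TGF-beta targets and 13 of 19 contractile and cytoskeletal genes. The SRF list gave 4 of 12, and the fibronectin and thrombospondin list 7 of 13. These counts stand beside 19% of all probe sets.

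**Figure D4:**
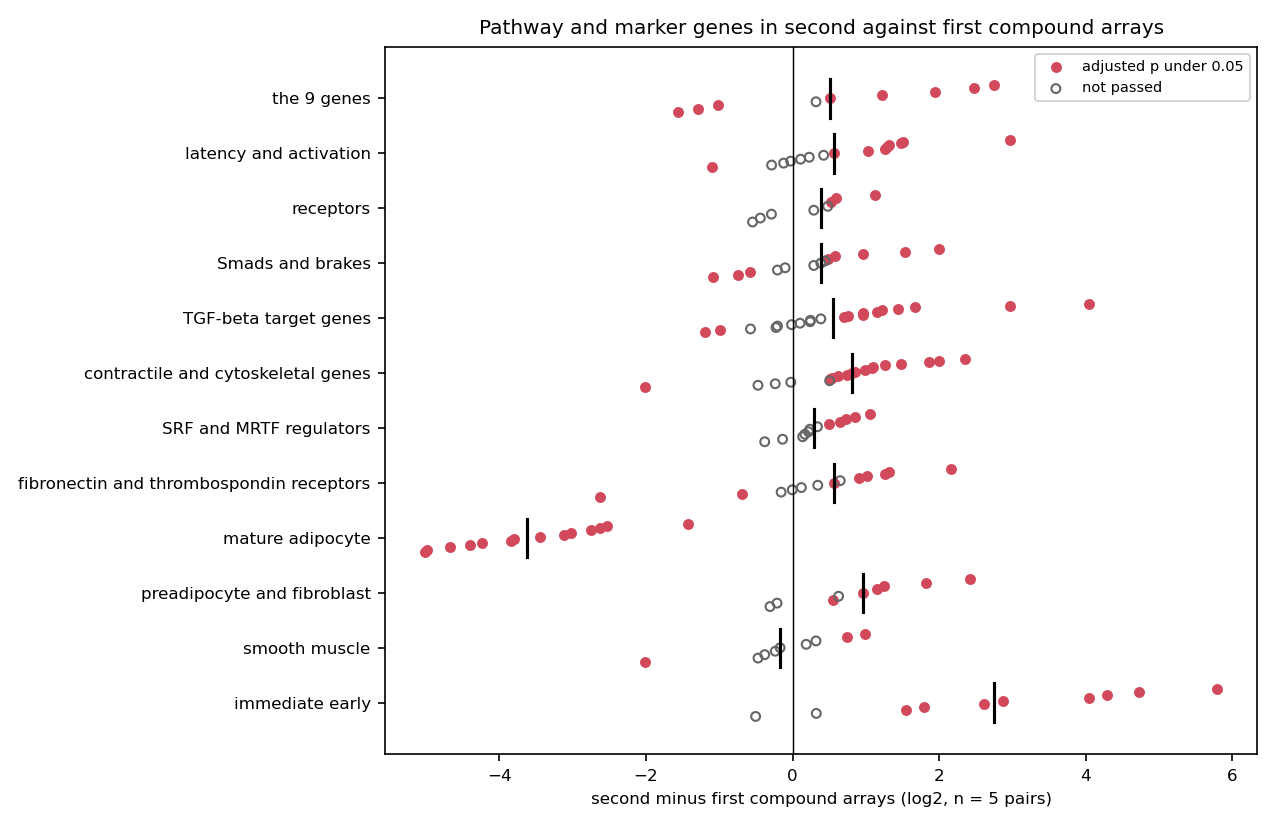
Log2 difference of second against first compound arrays (horizontal axis) for the genes of each list (vertical axis). Filled red points had an adjusted p under 0.05, open points did not, and bars are list medians. The medians run from -3.62 for mature adipocyte genes to 2.75 for immediate early genes.

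Markers of other states moved with the members, and their counts stand beside the same 11.2% higher and 9.96% lower of all probe sets. All 14 mature adipocyte markers fell between first and second compound arrays, with a median of -3.62. Of 9 preadipocyte and fibroblast markers 6 rose, with a median of 0.97, and the list mean was 13.41 in the control, 12.85 to 13.52 on the first compound arrays and 13.98 to 14.28 on the second. Of 10 immediate early genes, which answer growth factors and stress within minutes, 8 rose, with a median of 2.75. Junb, given above as a TGF-beta target, was among these 8. The mean of the 10 genes was 7.34 to 7.39 in the control, 7.24 to 7.41 on the first compound arrays and 9.96 to 10.18 on the second. What part these shifts have in the members' values was not tested.

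Smooth muscle markers did not move as a block, with 2 of 9 higher (Lmod1 and Smtn), 1 lower (Des) and a median of -0.17, beside 21.2% of all probe sets called in either direction. The list mean was 5.63 to 5.66 in the control, 5.49 to 5.63 on the first compound arrays and 5.38 to 5.59 on the second. Its defining genes Myh11, at means of 5.77 to 6.02, and Myocd lay below the negative-control medians. Lmod1 had a mean of 5.84 on the first compound arrays, below the medians there, and of 6.59 on the second, within the range of theirs. For macrophage and endothelial markers limma called 0 of 8 and 0 of 7 between second and first compound arrays. In the second compound arrays against the control it called 2 of 8 and 0 of 7, beside 19% of all probe sets.

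**Figure D5:**
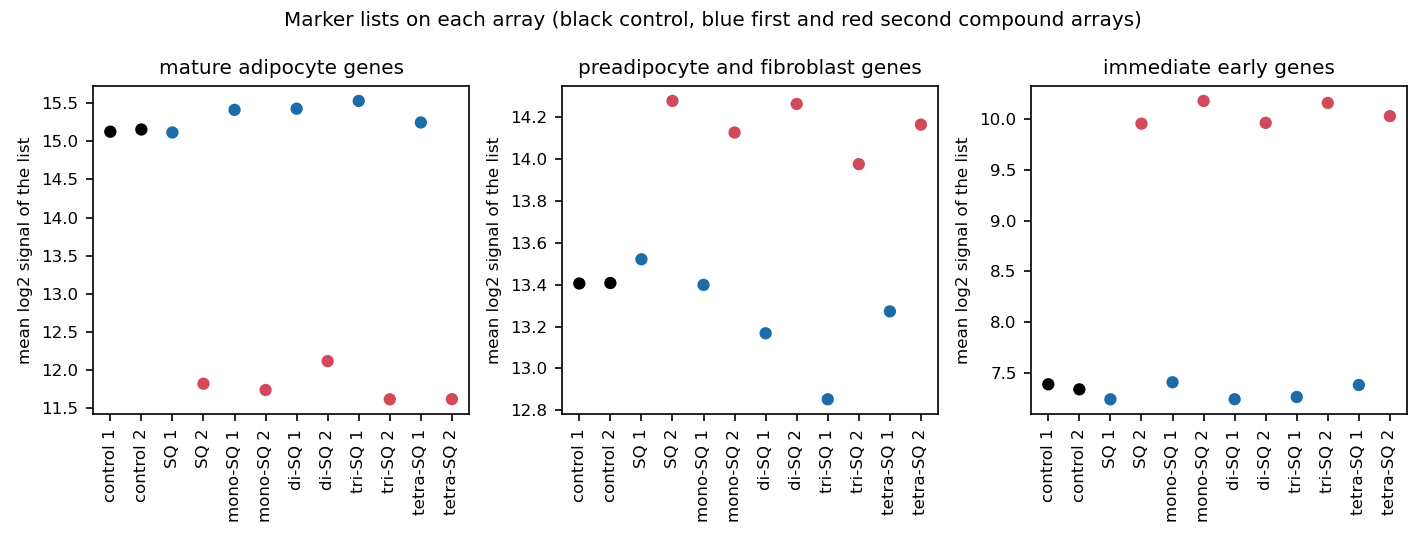
Mean log2 signal (vertical axes) of 3 marker lists on each of the 12 arrays (horizontal axes), with control in black, first compound arrays in blue and second in red. On the second compound arrays the mature adipocyte mean is 11.62 to 12.12, the preadipocyte and fibroblast mean 13.98 to 14.28 and the immediate early mean 9.96 to 10.18.

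Genes whose profile over the 12 arrays lay nearest to a member were found by the mean absolute difference of centred log2 values, with small values meaning like profiles. Nearest to Thbs1 were Plk2 (0.103), Ltbp2 (0.143) and Adamts2 (0.151), the last a procollagen protease. The median over the probe sets searched, which left out members, predicted loci and probe sets without a single symbol, was 1.28 for Thbs1. It was 1.21 for Postn, 0.622 for Acta2, 0.524 for Tagln and 0.374 for Cnn1, so these distances are not alike in meaning between members. Nearest to Postn were Klf6 (0.125), Gem (0.142) and Gas1 (0.158). Acta2 had Ifi204 (0.0864), H2-T10 (0.0917) and Traf5 (0.102), all known for roles in immunity. Those of Tgfb3 were Aqp1 (0.189), Mmp2 (0.213) and Scara5 (0.216), and those of Tgfb2 were Dusp22 (0.168), Hsph1 (0.188) and Gprc5b (0.188). Tgfb1 lay nearest to Sparcl1 (0.116) and to the mitochondrial genes Sdha (0.12) and Slc25a1 (0.123). Tagln had Rnf7 (0.167), Cox8a (0.17) and Kctd6 (0.173), and Cnn1 had Nyx (0.132), Fat2 (0.137) and Fhad1 (0.142), both members being near or below background. Fn1 spanned less than 1 log2 unit and was not matched. The arrays share the split between first and second compound arrays, so these are descriptions over 12 arrays.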

How the data were processed

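Clariom S mouse arrays of 12 samples in 6 groups of 2 were used. Per the file headers, the authors deposited gene-level log2 signals, and per the series' design text these came from SST-RMA normalization. Per the submitters' processing notes, RMA and Transcriptome Analysis Console version 4 were used. The authors also deposited signed fold changes, p-values and false discovery rates for each compound. A second deposited log2 table held the negative controls. No sample column was left unused. Groups came from the labels. Differences were fitted to the log2 signals with limma 3.58.1 in R 4.3.3 (two-sided, Benjamini-Hochberg over 22206 probe sets, threshold 0.05), and the fits were tested on simulated data.

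The members and lists were chosen with earlier results of these data known. Named genes were all members and, per list, at most 4 genes that passed between second and first compound arrays with the largest differences. Lower genes of 2 lists, genes that did not pass and the receptors called against the control were added after their values were seen, as the text says. A list gene with several probe sets was read from the brightest. For members spanning at least 1 log2 unit, the 3 nearest profiles were named. Deviations from group means correlated at 0.48 to 0.719 between same-numbered compound arrays and at -0.001 to 0.002 between control and compound arrays, so the numbers tie the compound arrays together but not to the control. Proteins of the ligands were not analysed here. Alternatives were quantile and median scaling, the other signal table, a filter on dim probe sets, trended robust variance, only the groups compared, array number as a block, and leaving out arrays or compounds. Array signal over background, not read depth, limits precision, as does the number of arrays.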

Additional observations from a re-analysis of the deposited data

Results flagged for a closer look

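Thbs1 and Postn were marked because the difference between the array numbered 2 and that numbered 1 was not the same in the compounds and in the control. The interaction in limma was 2.638 for Thbs1 (adjusted p = 0.0374) and 2.432 for Postn (adjusted p = 0.00909), both in log2 units. In all 5 compounds the second array was higher, by 2.16 to 3.8 for Thbs1 and by 2.01 to 2.78 for Postn, whereas the 2 control arrays differed by 0.11 and 0.04. The lists of mature adipocyte, preadipocyte and immediate early genes moved with the same arrays, and their part in these values was not tested.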

How the results depend on the processing

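Of the counts of calls, those that left 1.5 times their value under another setting concern the first and the second compound arrays against the control and the test of the difference between numbers. The 1 probe set called in the first compound arrays against the control became 0 under quantile scaling, median scaling, the other signal table and trended robust variance, and 0 to 2 when 1 array was left out. The difference between numbers in compounds against control gave 2 of 9 members and 484 probe sets in the main fit. Without dim probe sets it gave 4 of 7 members and 856 probe sets, from fewer probe sets tested. With trended robust variance it gave 4 of 9 members and 793 probe sets. Leaving out 1 compound gave 1 to 3 members and 255 to 584 probe sets, the lowest 3 being without mono-SQ (255), di-SQ (259) or tetra-SQ (275). The second compound arrays against the control gave 1880 to 4704 probe sets, the low values without control 2 (1880) or control 1 (1896), which leaves 1 control array. Beyond construction, the cause was not tested.

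Some differences that never passed changed sign when 1 array was left out. Acta2 in first compound arrays ran from -0.1025 to 0.0525, Postn there from -0.135 to 0.1475, Cnn1 in second compound arrays from -0.42 to 0.11, and the mean of compounds against control from -0.06 to 0.10 for Fn1 and from -0.319 to 0.043 for Tagln. The filter on dim probe sets kept 7 of 9 members and dropped Tagln and Cnn1. With array number as a replicate block, limma called 0 members and 0 probe sets against the control and between compounds, as without it. That pairing by number holds among the compound arrays and not between them and the control.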

Other observations

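Markers of bone-forming cells, which share a mesenchymal origin with adipocytes, were also measured. Of 6 such genes, 1 rose and 1 fell between first and second compound arrays, beside 11.2% of all probe sets higher and 9.96% lower. Runx2, the transcription factor that starts osteoblast formation, rose by 1.22 ± 0.23 (limma adjusted p = 0.00274), and Alpl, alkaline phosphatase, fell by 5.05 ± 0.20 (adjusted p = 9.96e-08). Alpl had mean log2 signals of 9.735 in the control, 9.73 on the first compound arrays and 4.68 on the second, the last below the negative-control medians. Of 8 skeletal muscle markers, 1 passed, beside 21.2% of all probe sets, and this was Des, which the smooth muscle list also holds. Myod1, the master factor of skeletal muscle, had means of 2.97 to 3.28, below the negative-control medians.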
